A study of Rubus occidentalis with 14 samples.

Results

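In fruit of black raspberry (Rubus occidentalis), 150 genes stayed within about a doubling of normalised abundance over fruit stages 1 to 4 and stood lower at stage 5. They were chosen by the stage means of the deposited normalised counts, out of 33253 gene identifiers. A gene was called steady when its means in stages 1, 2, 3 and 4 were each at least 50 and spanned at most 1 on the scale log2(mean + 10), that is, about a doubling. Of the 5876 steady genes, the 150 with the largest drop were kept. The drop is the lowest of the 4 earlier stage values minus the stage 5 value on that scale, and a minimum of 0.5 was set. The low level at stage 5 and the level course before it are therefore given by the choice of these genes and are described here without a test. The level course also rests on the deposited scaling. With equal total reads per library, 31 of the 150 kept a span of at most 1 over stages 1 to 4.

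The study sequenced poly(A) RNA of fruit at 5 stages to follow global gene activity, with 3 libraries each in stages 1, 2, 3 and 5 and 2 in stage 4. All fruit came from 1 breeding selection, NC 349, grown at a research station in North Carolina, with no treatment other than the stage. The labels number the stages and call the libraries biological replicates. They do not say how plants or fruits were divided among libraries, so the spread between libraries may be partly technical. The sample titles open with a code, which replicates 2 and 3 share in stages 1, 2, 3 and 5, while replicate 1 has another. Libraries that share a code may not be independent of each other. Library names carry 2-letter stage codes that are not spelled out, and the tissue could not be checked against marker genes because the identifiers are not paired with gene names.

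A raspberry is an aggregate of drupelets, each with fleshy tissue around a seed. As the berry ripens, chlorophyll is lost, anthocyanin pigments and sugars accumulate, acids decline and cell walls loosen. A fruit library sums the RNA of tissues such as flesh, skin and seed. Fewer cells of a type and less RNA per cell therefore cannot be told apart. The sample titles say fruit, and whether the receptacle was included is not stated in them. No function is given here for any gene, because the table lists identifiers only. No sequence is shown for the same reason.

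Recovered depth ranged from 7576338 to 39938265 reads per library. One read was worth 0.319 to 2.76 normalised counts, and the 3 stage 5 libraries held 28529382, 9913885 and 18482104 reads. Low stage 5 levels were thus read most coarsely in stage 5 replicate 2, where 3 reads equal 8.29 normalised counts. Counting error alone is covered by such floors. Library names mark 4 libraries as br1, one each in stages 1, 2, 3 and 5, and the title codes of 3 libraries in stages 3 and 4 open with other letters than the rest, and both splits are followed below.

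The 150 genes spanned a wide range of abundance. The mean over stages 1 to 4 had a median of 264 normalised counts over the 150 genes (quartiles 157 and 544), with a lowest value of 55.1 and a highest of 47538. Their median stage means over stages 1 to 4 were 266, 296, 285 and 232, and at stage 5 the median was 51.7. In the 5726 other steady genes the same medians were 439, 442, 453, 459 and 484. At stage 5 the typical gene of the 150 thus stood at 25.3% of its stage 4 mean (quartiles 12.7% and 38.3%), with extremes of 0.345% and 47.2%.

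Stage 5 levels ranged from near absence to high abundance. None was without reads in all 3 stage 5 libraries, 2 had 1 to 3 reads over the stage, and 6 had no reads in at least 1 library. A stage 5 mean under 10 normalised counts was found for 27 genes and one under 50 for 73. At the other end 6 still stood at or above 1000, against 20 with a mean of at least 1000 over stages 1 to 4. The drop was at least 4 in 5 genes, at least 3 in 19 and at least 2 in 52, and 72 genes had a drop between 1 and 1.5. Its median was 1.55, with quartiles of 1.22 and 2.38 and a largest value of 4.50.

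**Figure D1:**
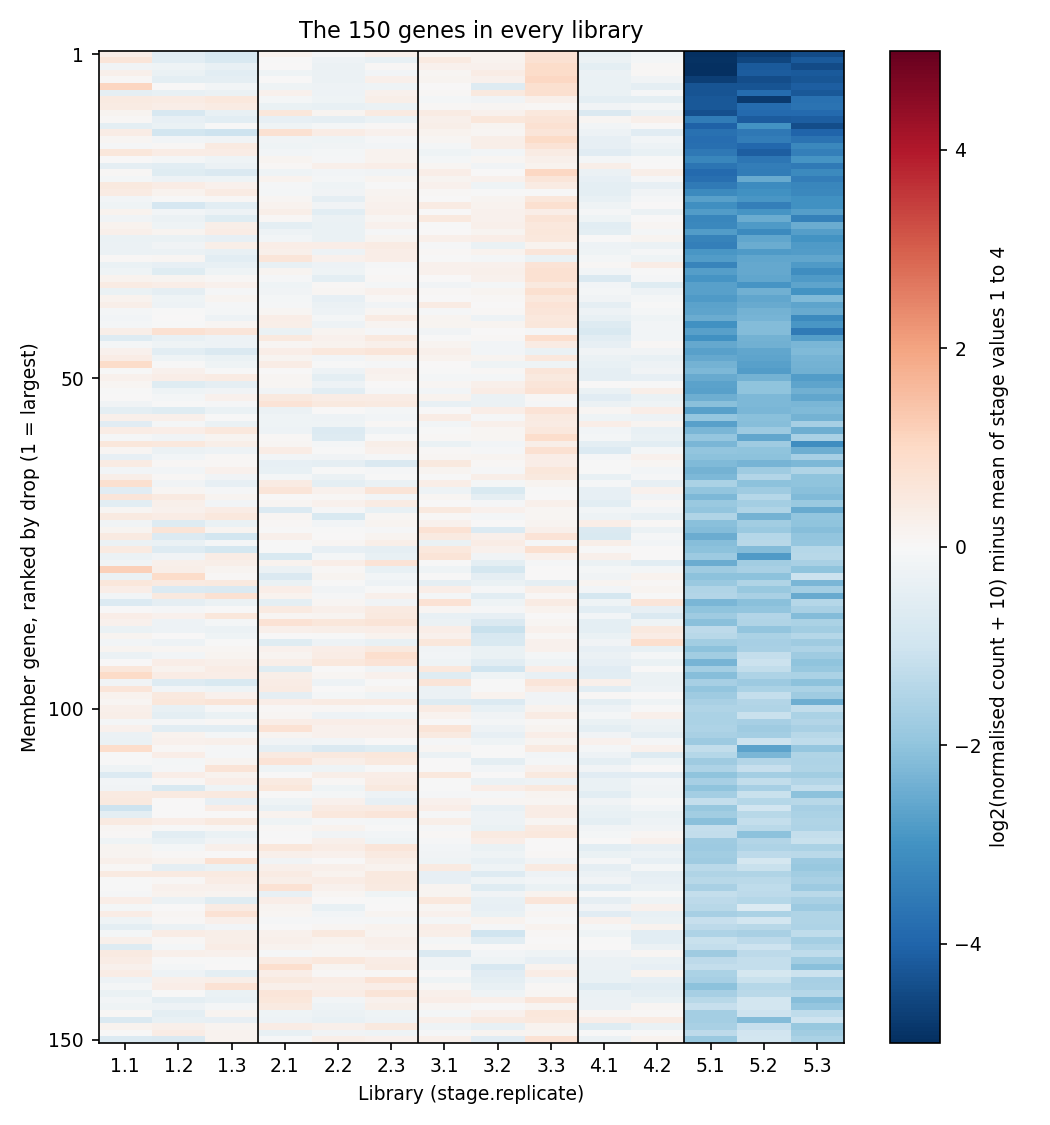
Heat map of the 150 genes (rows, ranked by drop) in the 14 libraries (columns, stage.replicate), coloured by log2(normalised count + 10) minus the mean of the gene's stage values 1 to 4. All 3 stage 5 columns are blue throughout, and stage 3 replicate 3 is the most evenly red column among stages 1 to 4, with a median of 0.30 over the genes.

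Ro03_G05180 had the largest drop, 4.50. It stood at 1157, 618 and 531 normalised counts in the stage 1 replicates and at 1058, 887 and 1097 in those of stage 2. In stage 3 it was at 1010, 1055 and 1530, and in stage 4 at 721 and 846. The 3 stage 5 libraries held 15.7, 24.9 and 32.5, from 16, 9 and 22 reads. Every stage 5 library lay far below every earlier one, and the lowest earlier stage mean was 31.6 times that of stage 5.

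Ro02_G09629 followed with a drop of 4.33, at a lower abundance. Its stage 1 libraries were far apart, at 557, 248 and 210, while stage 2 held 355, 297 and 280. It reached 490, 412 and 622 in stage 3 and 295 and 333 in stage 4, then 1.96, 5.53 and 10.3 in stage 5. Those last values rest on 2, 2 and 7 reads. The ratio of the lowest earlier stage mean to the stage 5 mean was 52.3.

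Abundant genes were among the 150 too. Ro01_G21511, the most abundant, had stage means of 53717 ± 18000, 42750 ± 3955, 48790 ± 6589 and 44893 ± 4386 in stages 1 to 4 (SD, n = 3, 3, 3 and 2). At stage 5 its libraries held 16431, 21580 and 16562, and its drop was 1.23. The next, Ro06_G18552, had means of 7571 ± 1651, 10561 ± 1490, 7300 ± 739 and 7321 ± 460, and its stage 5 libraries at 1167, 1327 and 1334 were close to each other (drop 2.51). Neither gene had a stage 5 library that overlapped an earlier one. Together the 150 genes took 1.25% to 1.48% of all reads in the stage 1 libraries, 0.50% and 0.54% in stage 4 and 0.14% to 0.18% in stage 5. Leaving out Ro01_G21511, these shares were 0.84% to 0.90%, 0.33% and 0.34%, and 0.08% to 0.10%.

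The least abundant of the 150, Ro07_G18570, shows what the rule admits at its floor. Its stage 1 libraries held 74.0, 44.5 and 36.4 normalised counts, its stage 4 libraries 41.1 and 63.2, and its stage 5 libraries 11.8, 24.9 and 20.7. The stage 5 reads numbered 12, 9 and 14. The groups did not overlap, but the highest stage 5 value lay close to the lowest of stage 3, 33.3.

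How level a course was before stage 5 differed among the genes. The span of the 4 earlier stage values had a median of 0.68 on the log2 scale, against 0.57 in the other steady genes. Ro03_G15677 was the most level, with stage means of 76.0, 68.9, 74.5 and 71.3 and a span of 0.13, before 27.4, 33.2 and 19.2 in the stage 5 libraries. In contrast, Ro06_G16368 had a span of 0.99. Its means over stages 1 to 4 were 266 ± 46.3, 430 ± 26.0, 223 ± 63.0 and 211 ± 31.5 (SD, n = 3, 3, 3 and 2), and it ended at 76.2 ± 17.8 (n = 3). All 3 stage 2 libraries, at 455, 403 and 432, lay above every other library of this gene, so a course within the rule can still hold a peak.

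**Figure D2:**
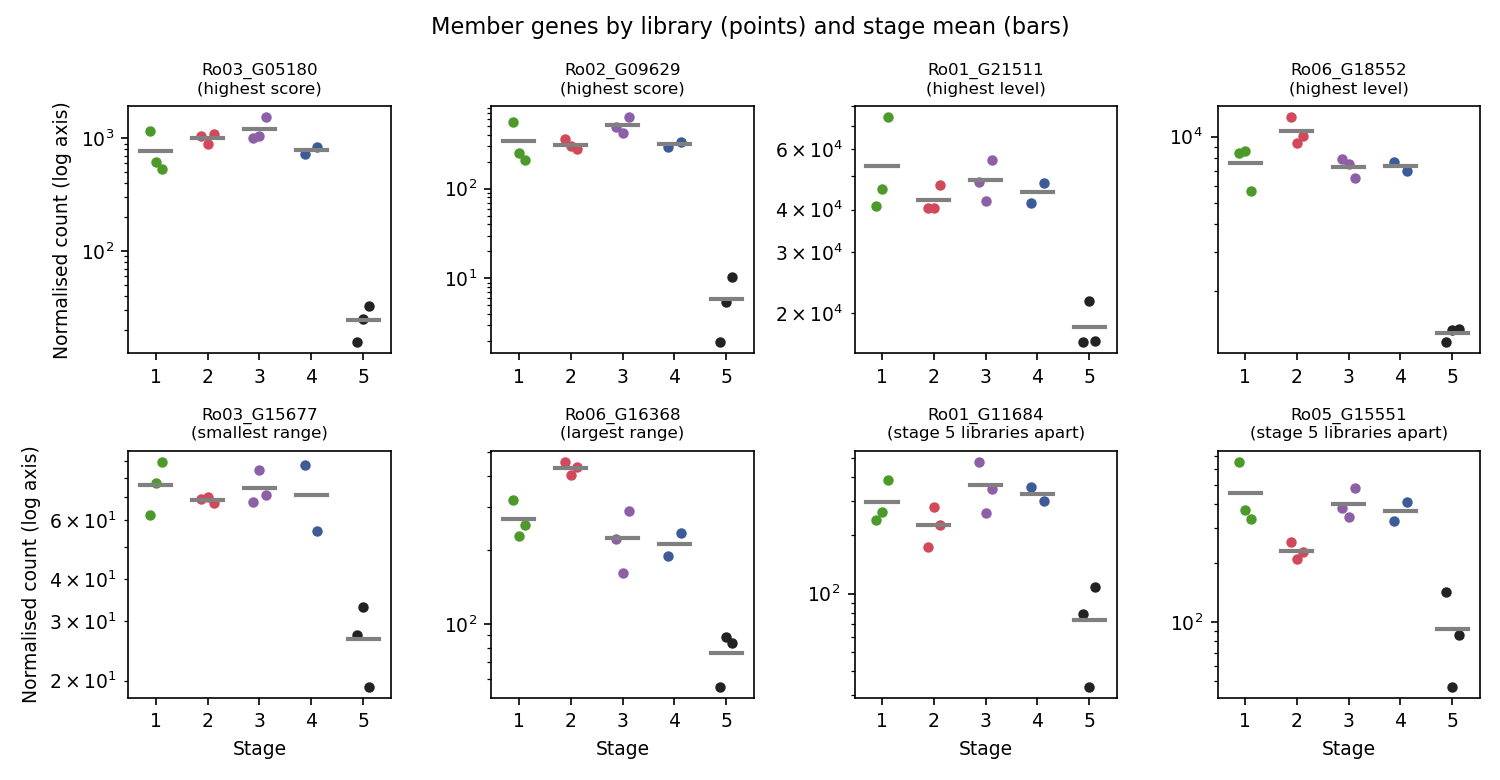
Normalised counts (log axis) of 8 of the genes in each library (points, one colour per stage) and stage means (grey bars), by stage. In each panel every stage 5 point lies below every earlier point; the distance is largest for Ro03_G05180 and Ro02_G09629.

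The edge of the 150 was arbitrary. Ro05_G25381, the last gene taken, had stage means of 350, 500, 534 and 443 and then 165, a drop of 1.04. Ro01_G18206, the first left out, had means of 97.5, 70.3, 125 and 111 and then 29.1, with a drop that also rounds to 1.04. Another 272 steady genes were lower at stage 5 by more than 0.5 without reaching the 150.

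Among all 5876 steady genes, the farthest stage 5 values lay on the low side. The rule set a floor of 50 on the means of stages 1 to 4 and none on stage 5. Genes low in stages 1 to 4 and high at stage 5 could therefore not enter. The low and the high side were thus not admitted alike, and the counts are descriptive. Of these genes, 422 (7.18%) lay below the range of their earlier stages by more than 0.5 and 337 (5.74%) above it by as much. At a distance of at least 1 there were 163 below and 35 above, at 2 there were 52 and 2, and at 3 there were 19 and 0. The largest increase was 2.12. For 2196 steady genes (37.4%) stage 5 fell within the range of stages 1 to 4. With equal total reads per library the counts beyond 0.5 were 544 below and 84 above, out of 4484 steady genes. After quantile normalization they were 260 and 211, out of 5833.

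**Figure D3:**
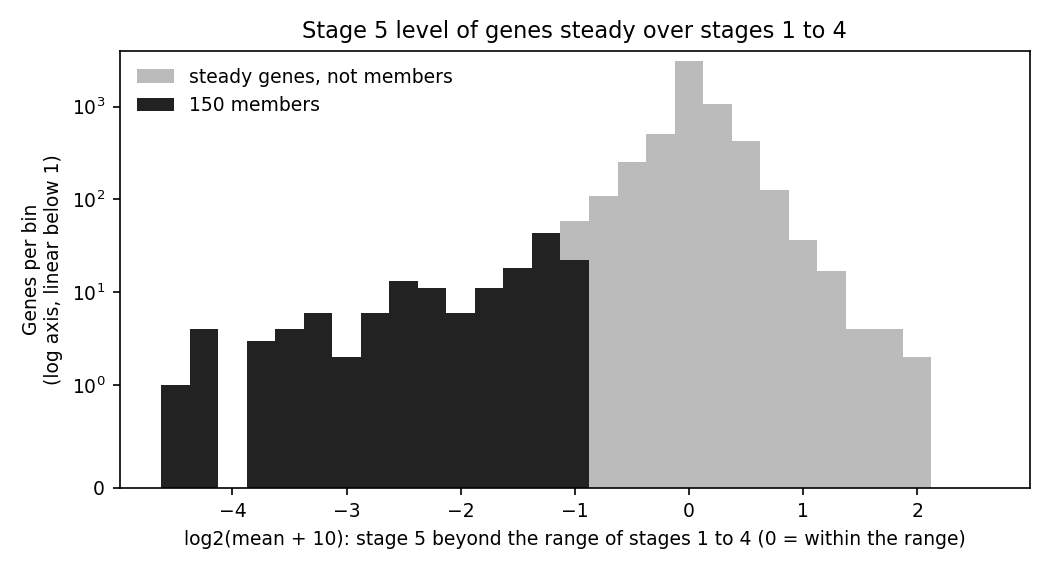
Histogram of how far the stage 5 value, log2(mean + 10), lay outside the range of stages 1 to 4 for the 5876 steady genes; bars of the 150 genes (black) and the others (grey) are drawn over each other from 0, and the count axis is logarithmic. The lower tail reaches -4.50 and the upper one 2.12.

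The test across all genes, which used the contrast that chose the 150, is given as background. From stage 4 to stage 5, 10.8% of the 19234 genes tested were called lower and 7.66% higher (limma adjusted p below 0.05, Benjamini-Hochberg). All 150 passed the filter on low values and all 150 were called lower, which their choice all but fixed. Their median log2 change of the normalised count + 1 was -2.00, beside -0.0043 over all genes tested. With equal total reads the medians were -2.17 and -0.17. For Ro03_G05180 the change was -5.00 ± 0.33 (SE) and for Ro01_G21511 -1.31 ± 0.28. Of the 11 genes named by rank or at the edge of the 150, 7 stayed called under every alternative run. Ro01_G21511 was not called without stage 4 replicate 2, which left stage 4 with 1 library (change of -1.21). Its lowest adjusted p over the alternatives, 4.13e-06, came from DESeq2 and not from limma. The call of Ro03_G15677 was lost without stage 4 replicate 1 (change of -1.07) and with only the libraries of stages 4 and 5 (limma adjusted p 0.0560). Its lowest adjusted p, 0.000897, also came from DESeq2. Among all genes tested, 10.6% had every stage 5 library below every earlier library. In the 150, whose choice largely fixed this pattern, the count was 149. The exception, Ro05_G30827, was named after its values were seen. It held 249 in stage 5 replicate 2 against 234 in stage 1 replicate 1.

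Each stage 5 library was also read for genes chosen without it. The left-out stage 5 value then took no part in the choice, while the stage 1 to 4 means it is set against are those that chose the genes. Stage 5 replicates 2 and 3 share a title code, and replicate 1 has another. Whether libraries with the same code share source material is not stated, so replicates 2 and 3 may not be independent of each other. When the 150 genes were chosen again without stage 5 replicate 1, 149 of them (99.3%) were lower in that library than in any earlier stage mean, and 145 (96.7%) by more than 0.5. Of the genes chosen without replicate 2, 150 were lower in it and 145 by more than 0.5, and without replicate 3 the counts were 150 and 148. In the steady genes not chosen, 6.13%, 5.92% and 6.50% were lower by more than 0.5 in the same libraries. The median drop in the left-out library was 1.69, 1.43 and 1.64, against 1.50, 1.58 and 1.53 in the 2 libraries used. The drop thus had a like size in each stage 5 library when that library was not used.

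The gene that failed this reading, Ro02_G08825, was named after its values were seen. Its br1 libraries held 4240, 3654, 4333 and 1806 normalised counts in stages 1, 2, 3 and 5, while its other libraries of stages 1 to 4 lay between 1102 and 1590 and those of stage 5 at 600 and 646. Within either kind of library it was lower at stage 5, and with all libraries its drop was 0.39, which left it outside the 150. In 6 of the 150 genes the br1 library was the highest of its stage in all 4 stages that have one, and in 2 the lowest, 4.00% and 1.33%. In all genes tested these shares were 5.89% and 5.82%, and in the other steady genes they were 9.73% and 8.73%.

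**Figure D4:**
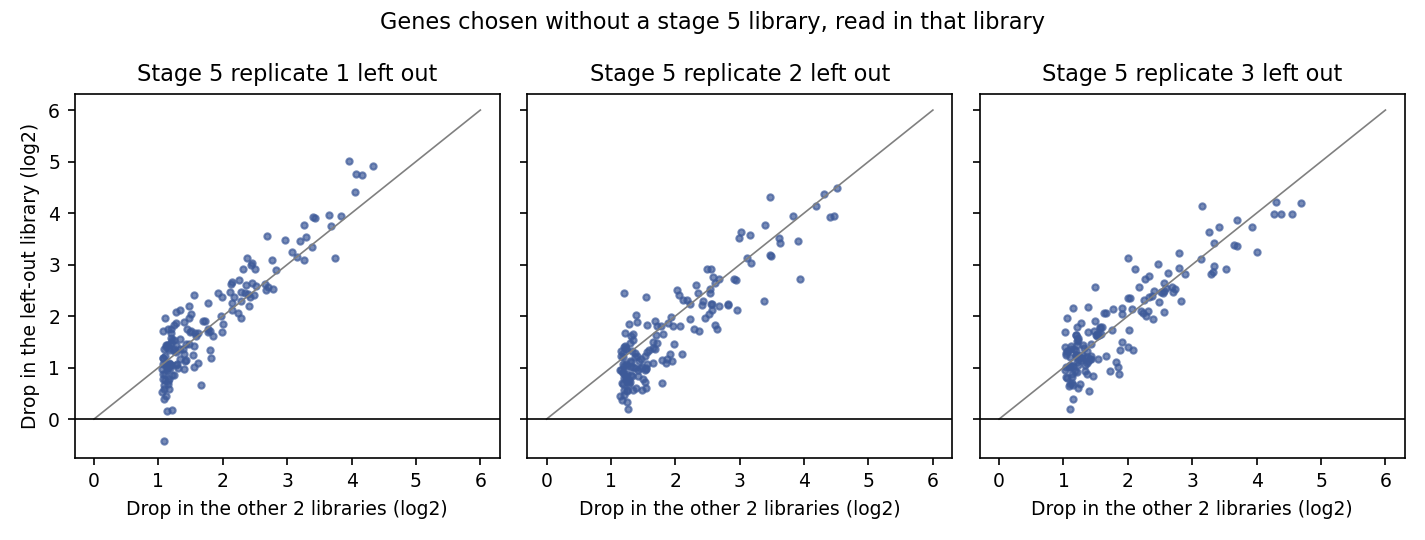
Drop of each gene in a left-out stage 5 library (vertical axis, log2) against its drop in the other 2 (horizontal axis), for the 150 genes chosen without that library; the grey line marks equal values and the black line no drop. One point lies below no drop, in the panel of replicate 1.

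The drop was also read within the library sets. The 150 were chosen with these same libraries, so their counts there are a description that the choice largely fixed. In the 4 br1 libraries alone, where stage 4 is missing, all 150 genes were lower at stage 5 by more than 0.5, with a median drop of 1.83. In the 10 br2 and br3 libraries all 150 were lower by more than 0.5 as well, with a median of 1.49. In the 11 libraries whose title codes open with YH the count was again 150 and the median 1.46. Of the other steady genes, 8.56%, 4.80% and 4.23% were lower by more than 0.5 in these 3 sets. Applying the rule to the br2 and br3 libraries alone chose 123 of the 150 again, and to the YH libraries alone 124. These library sets were taken up after the data had been seen.

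As in other steady genes that were lower at stage 5, stage 4 levels of many of these genes were already below those of stage 3. Stage 4 was the lowest of the 4 earlier stages in 78 of the 150 (52.0%) and the highest in 5, while in the other steady genes it was the lowest in 24.3% and the highest in 35.5%. The 272 steady genes with smaller drops were like the 150 in this, with stage 4 lowest in 52.2% and highest in 6.62%. From stage 3 to stage 4 the mean was lower in 130 of the 150, with a median difference of -0.31, beside -0.14 in the 272 genes with smaller drops and 0.03 in all other steady genes. Both stage 4 libraries lay below all 3 stage 3 libraries in 64 of the 150, against 22.4% of the 272, 14.7% of all genes tested and 9.48% of the other steady genes. The earlier steps were small, with a median of 0.12 into stage 2 and one of 0.10 into stage 3.

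Stage 4 has only 2 libraries, and each was read after being left out of the choice. Of the genes chosen without stage 4 replicate 1, 100 (66.7%) were lower in it than in any mean of stages 1 to 3, and without replicate 2 the count was 71 (47.3%). In all steady genes not chosen these shares were 25.5% and 25.7%, and in those not chosen but lower at stage 5 by more than 0.5 they were 66.4% and 51.9%. The left-out library lay below the mean of the stage 1 to 3 values by a median of 0.41 and 0.23 (differences of -0.41 and -0.23), and above stage 5 by 1.66 and 1.77. With the left-out library in place of stage 4, the course stayed within a span of 1 in 126 and 136 of the genes. The 2 stage 4 libraries therefore differed in how much of the decline they showed. By these medians both stood nearer to the mean of stages 1 to 3 than to stage 5, whose low level chose the genes.

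The size of the drop was also set against the stage of the highest mean. Of the 60 genes highest in stage 3, 33 (55.0%) had a drop of at least 2, with median stage means of 204, 233, 299, 232 and 22.3 in stages 1 to 5. Of the 46 highest in stage 2 8 (17.4%) reached that drop, and their median stage means were 376, 475, 368, 298 and 106. The 39 genes highest in stage 1 were in between, with 11 (28.2%). These groups share the values that define the drop, so the counts are descriptive. The stage 3 level of the larger drops also leaned on 1 library. In the 52 genes with a drop of at least 2, stage 3 replicates 1, 2 and 3 had medians of 0.08, 0.13 and 0.59. These are log2 differences from the mean of the gene's stage values 1 to 4.

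The spread between libraries of a stage was not itself a term of the rule. A gene with a wide spread can more easily reach a large difference of stage means, so the spread is not independent of the choice. The SD within stages 1 to 4, pooled over stages on the log2(normalised count + 10) scale, had a median of 0.24 against 0.20 in the 272 genes with smaller drops and 0.17 in all other steady genes. Split by level, the medians of the 150 and of all other steady genes were 0.26 against 0.21 for genes with a mean of 50 to 200, 0.25 against 0.17 for 200 to 500 and 0.23 against 0.14 for 500 and above.

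In some libraries most of the 150 genes lay to the same side. In stage 3, 134 of the 150 genes (89.3%) were higher in replicate 3 than in replicate 2, by a median of 0.42, while 78.7% of the 272 genes with smaller drops and 46.6% of all other steady genes were. The title codes of these libraries are the same. The share was 90.4% in the 52 genes with a drop of at least 2 and 88.8% in the other 98. Stage 3 replicate 3 was the highest of its stage in 46 of those 52 genes (88.5%) and in 57 of the 98. In all other steady genes the share was 28.5%. In stage 4, replicate 2 was above replicate 1 in 105 of the 150 genes (70.0%, against 53.2%), and in stage 5 replicate 2 was the highest library in 81 (54.0%, against 37.8%). Stage 2 replicate 2 was the lowest stage 2 library in 36 of the 52 genes with the larger drops and in 43 of the other 98. It held 8601064 reads. Stage 3 replicates 2 and 3 held 8597118 and 10610577 reads, and the part of depth in these differences was not tested.

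Agreement among the stage 5 libraries varied by gene. The distance between the highest and the lowest stage 5 library had a median of 0.57 on the log2 scale and was over 1 in 18 genes. It was widest in Ro01_G11684 and Ro05_G15551. Ro01_G11684 held 78.3, 33.2 and 108 normalised counts in stage 5, from 80, 12 and 73 reads, against 356 and 302 in stage 4. Ro05_G15551 held 143, 47.0 and 85.7 in stage 5, from 146, 17 and 58 reads, against 327 and 409 in stage 4. In both genes replicate 2 was the low library, although it was the highest of the 3 in 81 of the 150 genes.

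Identifiers of the 150 genes were spread over all 7 prefixes of the table. The prefix Ro01 held 25 of them (3.54% of its steady genes) and Ro05 held 17 (2.11%), the highest and lowest shares. In identifier order, 6 pairs of the 150 stood within 5 places of each other, involving 12 genes (8.00%). Among the 337 steady genes that were higher at stage 5 the share was 11.3%, and among the 272 with smaller drops 7.35%. A larger set holds more such pairs by its size alone, so these shares cannot be compared between the sets. Whether identifier order follows position in the genome is not stated in the table.

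The level course before stage 5 depended on the scaling. As deposited, the 150 genes had median differences from stage 1 of 0.12, 0.14, -0.20 and -1.99 in stages 2, 3, 4 and 5, on the log2(mean + 10) scale. With equal total reads per library these became -0.10, -0.67, -1.24 and -3.17, and 31 of the 150 kept a span of at most 1 over stages 1 to 4. The other steady genes then moved too, by -0.19, -0.74, -0.96 and -1.05. After quantile normalization the medians were 0.28, 0.31, 0.13 and -1.45, and 86 of the 150 kept that span. Stage 5 was the lowest stage in all 150 genes under the deposited, upper-quartile and equal-total scalings, and in 145 under quantile scaling.

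**Figure D5:**
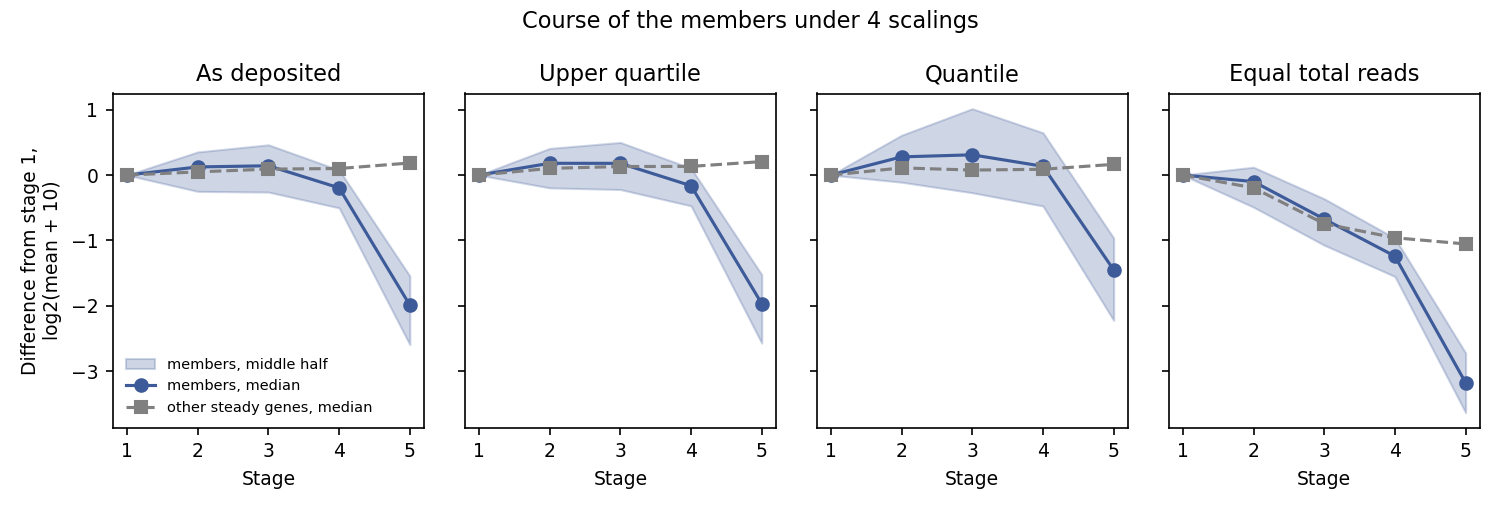
Median difference from stage 1 in log2(mean + 10) for the 150 genes (blue, shading between the quartiles) and for the other steady genes (grey, dashed), by stage under 4 scalings. From stage 4 to stage 5 the median of the 150 was -1.76 as deposited, -1.77 with upper-quartile scaling, -1.45 under quantile scaling and -1.79 with equal total reads, while the course before stage 5 changed from level to declining with equal total reads.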

How the data were processed

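The deposited table held 1 normalised signal per gene and library. Trimmomatic, HISAT2 and DESeq2 were used, per the submitters' processing notes. Their versions, the counter, the build and the annotation: not given in the sources used here. All values were whole multiples, to within 0.01 read, of the smallest value above 0 in their library, so whole reads were recovered (100% of values in every library). Libraries were matched by name, and replicates of a stage differed beyond counting noise (chi-square per gene of at least 12.1).

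The members and lists were chosen with earlier results of these data known. Lists by gene name could not be matched. Genes were named by rank in drop, level, span and stage 5 spread, and at the edge of the 150; exceptions are stated.

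Genes with 10 normalised counts in at least 2 libraries entered limma 3.58.1 (R 4.3.3) on a log2 scale with a pseudocount of 1 (trended prior variance, 14 libraries, two-sided). The procedure was tested on simulated counts. Alternatives included edgeR 4.0.16 and DESeq2 1.42.0 on recovered reads, other pseudocounts, filters, scalings, left-out libraries and blocks.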

Additional observations from a re-analysis of the deposited data

How the results depend on the processing

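Requiring a span of at most 0.5 over stages 1 to 4 chose 124 genes, 32 of them among the 150, and left 124 steady genes lower and 142 higher at stage 5 by more than 0.5. Quantile normalization chose 76 of the 150 again, with 260 lower and 211 higher, and called 2099 genes from stage 4 to stage 5 in place of 3548. Equal total reads chose 30 of the 150 again, with 84 higher, and 21.0% of its calls were higher against 41.5% as deposited. The other settings of the rule chose 123 to 145 of the 150. Without single libraries 132 to 147 were chosen again, 389 to 461 steady genes were lower and 315 to 396 higher, the calls numbered 1718 (without stage 4 replicate 2) or 1784 (without stage 4 replicate 1) to 3741, and 130 to 150 of the 150 were called. Leaving stage 4 with 1 library assumes that it varies like the other stages. Of 297 alternative values of the 11 genes named by rank or at the edge none changed sign and 12 lost the call, in Ro01_G21511, Ro03_G15677, Ro05_G25381 and Ro07_G18570 (adjusted p 0.0534 to 0.227). Same-numbered libraries of different stages did not deviate together throughout, so the numbers are not taken as pairs. By title number r was over 0.1 in 14 of 26 pairs, and 0.06 in both pairs of stages 4 and 5. By library-name number r was over 0.1 in 13 of 26 pairs, and -0.06 and 0.003 in the pairs of stages 4 and 5. The br1 libraries of stages 1, 2, 3 and 5 did deviate together, with r from 0.17 to 0.41 in every pair of them. For replicates 2 and 3, r was 0.32 and 0.33 between stages 1 and 2, but -0.06 and -0.07 between stages 3 and 5. With a replicate block by title number 3972 genes and all 150 were called, and with one by library-name number 4018 and 149. edgeR called 3204 genes and DESeq2 3768 (no adjusted p for 415), each with all 150. The cause of these moves was not tested. Depth limits the lowest stage 5 levels, where 24 of the 150 had at most 3 reads in replicate 2.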
